A study of Saccharomyces cerevisiae with 4 samples.

Results

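The strain lacking SIR2 was compared with the strain lacking SIR4, as the log2 level on the SIR2 deletion array minus that on the SIR4 deletion array, for all 5449 genes of Saccharomyces cerevisiae that the arrays measured. The comparison uses 2 of the 4 arrays of the series, and wild type is not its reference. There is 1 array for a wild type, which the labels name BY4742 and which is of mating type alpha, and 1 for each strain deleted for SIR2, SIR3 or SIR4, written sir2Δ, sir3Δ and sir4Δ below. The labels do not name the parent of the deletion strains. Each culture was 5 ml of YPD, a medium rich in glucose, at 30 °C, taken at a density reading of 0.7, and 200 ng of total RNA from it was labelled. KanMX, a drug resistance marker, replaced the deleted gene by recombination, so both sides of the comparison carry it, each at its own locus. With 1 array per strain no difference below has a test, a p-value or a replicate check, and precision is limited by that number of arrays. The labels do not say whether a strain is 1 clone or several.

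Sir2, Sir3 and Sir4 form the complex of silent chromatin at the silent mating loci and near chromosome ends. Sir2 is a histone deacetylase that consumes NAD, and Sir4 is the scaffold that brings Sir2 to silencers and telomeres. Sir2 also works in the nucleolus with Net1 and Cdc14 on the repeated ribosomal DNA, where Sir3 and Sir4 are not part of the complex. A cell without any one of the Sir proteins expresses the silent mating cassettes, holds both a and alpha information and switches off its haploid-specific genes.

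Each deleted gene was low only on the array labelled with its deletion. Levels are log2 RMA values, and the background of an array is the 95th percentile of its probe sets for another yeast. SIR2 was at 3.68 in sir2Δ, below the background of that array of 4.32, and at 9.81 in sir4Δ, 9.96 in wild type and 10.34 in sir3Δ. It was therefore at least 45.0-fold lower in sir2Δ than in sir4Δ. SIR4 was at 9.78 in sir2Δ and at 3.05 in sir4Δ, below the background of 4.28, with 9.98 in wild type and 9.91 in sir3Δ, a difference of at least 45.5-fold. SIR3 differed by -0.15. The nearest measured neighbours of SIR2, PRP11 and NAT1, differed by 0.03 each. Those of SIR4 were ADK1 at -0.10 and PCF11 at -0.15. Of the 10 measured genes within 5 places of SIR2, PRM7 alone was called, and of the 10 around SIR4 none. PRM7, a pheromone-regulated membrane protein gene beyond NAT1, was at 10.46 in sir2Δ against 12.61, 12.22 and 12.15 in sir4Δ, wild type and sir3Δ, so it was low on the sir2Δ array alone. Whether the change made at the SIR2 locus lowered it was not tested.

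The sir4Δ array stood apart in its control RNAs. Of 36 probe sets for bacterial RNAs of the kind added to the sample before labelling, 33 were above background on all arrays. All 33 were brighter on it than on the sir2Δ array, with a median difference of -0.47 and mean levels of 6.56, 6.46, 6.45 and 6.98 in wild type and sir2Δ, sir3Δ and sir4Δ. The 27 probe sets for hybridisation controls differed by a median of -0.21. Setting the arrays level by the bacterial RNAs would shift every difference by 0.52, a setting chosen after the data were seen. The median of all genes, -0.03 as deposited, would then be 0.49, and the list medians below 0 given further on, other than that of ribosome biogenesis, would lie above 0. In 3 prime minus 5 prime signal, a sign of RNA integrity, the control genes of yeast differed between the arrays by -0.42 for TDH1 and by -0.27 to 0.09 for the others. The gene medians of the 16 chromosomes lay between -0.05 and 0.04.

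A gene was called where the arrays differed at least 2-fold, a log2 difference of 1 or more or of -1 or less. In sir2Δ 63 genes were higher than in sir4Δ, or 1.16% of those measured, and 27 were lower, or 0.496%. With the arrays set level by the bacterial control RNAs the numbers would be 400 and 11. Of the 277 genes checked by name 29 would then pass the limit, and 16 lower genes would no longer reach it. These are ARG7, CGR1, CTA1, IZH4, MET16, PCL5, RGS2, RRT5, SET6, SNO1, SPO19, SPS1, TMT1, UBC11, YNL018C and YOR072W-B. The central 95% of the differences over all genes lay between -0.67 and 0.74. For comparison, 44 genes were higher and 13 lower in sir2Δ than in sir3Δ, or 0.807% and 0.239%, and 27 were higher and 42 lower in sir3Δ than in sir4Δ, or 0.496% and 0.771%. None of 1746 probe sets for another yeast on the same arrays reached 2-fold, with differences from -0.72 to 0.96. Those probe sets define the background and mostly lie below it, so they give no rate of false calls for expressed genes. On the higher side TPS2 and WTM1 were just inside the limit, at 1.001 and 1.02, with XKS1 and COA4 just outside at 0.996 and 0.993. On the lower side CGR1 and SNO1 were just inside at -1.02 and -1.04, and ODC2 and STR2 just outside at -0.9996 and -0.992.

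**Figure D1:**
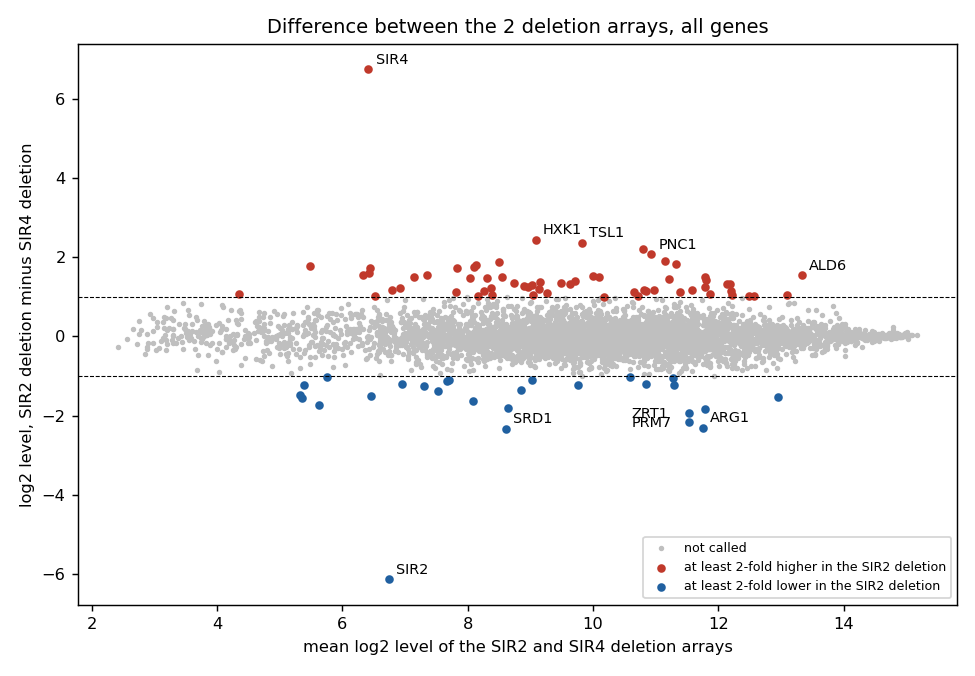
Each point is 1 of 5449 genes, with the mean log2 level of the sir2Δ and sir4Δ arrays across and the log2 difference, SIR2 deletion minus SIR4 deletion, upward. Red points are the 63 genes at least 2-fold higher, blue points the 27 at least 2-fold lower, dashed lines mark the limits of 1 and -1, and the deleted genes SIR4 and SIR2 lie farthest out.

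On the deposited scale most called genes had sir4Δ within 0.5 of wild type. That share was not computed over all genes, so it is not read as a trait of the called genes. The bacterial control RNAs were brighter in sir4Δ, at a mean of 6.98 against 6.56 in wild type. The counts below were not redone with the arrays set level by those RNAs. Of the 62 higher genes other than SIR4, sir2Δ was at least 2-fold above wild type for 38, sir4Δ at least 2-fold below wild type for 6, and neither deletion 2-fold from wild type for 19, HXK1 meeting both of the first conditions. sir4Δ lay within 0.5 of wild type for 45 of the 62. sir2Δ had the highest level of the 4 arrays for 58 and sir4Δ the lowest for 41. Choosing genes with sir2Δ above sir4Δ raises both counts by itself. sir3Δ lay between sir2Δ and sir4Δ for 56, against 45.5% of all genes, a share that the wide gap of the called genes raises by itself. Of the 26 lower genes other than SIR2, sir2Δ was at least 2-fold below wild type for 16, sir4Δ at least 2-fold above wild type for none, and neither for 10. Here too sir4Δ lay within 0.5 of wild type for 16.

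The largest difference after the deleted genes was that of HXK1, at the entry of glucose into metabolism. HXK1, which encodes a hexokinase made when glucose is scarce, was at 10.31 in sir2Δ and 7.86 in sir4Δ, with 9.14 in wild type and 9.76 in sir3Δ. That is 5.44-fold, with sir2Δ above and sir4Δ below the other arrays. In RNA of a whole culture, more cells with a transcript and more of it per cell cannot be told apart. GLK1, the glucokinase gene, was at 11.90 and 9.69 in sir2Δ and sir4Δ, with 10.33 and 10.94 in wild type and sir3Δ, or 4.62-fold. EMI2, a paralogue of GLK1, had 10.42 and 9.02, with 9.12 and 9.74, in the same order of strains. HXK2, the main hexokinase gene on glucose, differed by 0.18. Of 22 measured genes of glycolysis and fermentation 5 were higher and none lower, with a median of 0.12. They were HXK1, GLK1, ALD6, TDH1 and PYK2. The high-flux genes PGK1, TDH3, CDC19 and PDC1 differed by 0.12, 0.04, 0.06 and 0.07. They and HXK2 are among 207 genes with a mean level of 14 or more, near the top of the scale of these arrays. No gene there was called, with differences from -0.49 to 0.31, so a small difference at such levels is not read as a contrast with the called genes.

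TDH1, a minor glyceraldehyde 3-phosphate dehydrogenase gene, was at 12.53 in sir2Δ and 11.04 in sir4Δ, with 11.75 in wild type and 11.17 in sir3Δ. sir2Δ had the highest of the 4 levels. Control probe sets of TDH1 at its 3 prime end, middle and 5 prime end differed by 1.62, 2.19 and 2.04. Another one for its middle, with a suffix for probes that can match several sequences, had 14.98 in sir2Δ and 14.92 in sir4Δ, a difference of 0.06. ALD6, the cytosolic acetaldehyde dehydrogenase gene, was low in sir4Δ. It was at 12.56 in sir4Δ, below 13.60 in wild type, 13.81 in sir3Δ and 14.11 in sir2Δ, so sir4Δ stood farther from wild type than sir2Δ did, and the difference was 2.93-fold. PYK2, the second pyruvate kinase gene, had 9.04 and 7.56 in sir2Δ and sir4Δ.

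Genes of the reserve carbohydrates trehalose and glycogen lay mostly above 0. Of 20 measured members 5 were higher and none lower, the median was 0.66 against -0.03 for all genes, and 19 were above 0. TSL1, a regulatory subunit of the trehalose synthase complex, was at 11.00 in sir2Δ, 8.64 in sir4Δ, 8.84 in wild type and 9.82 in sir3Δ. Wild type lay near sir4Δ and sir3Δ between, and sir2Δ was 5.16-fold above sir4Δ. TPS1 and TPS2, the synthase and phosphatase of the complex, differed by 1.16 and 1.001. The glycogen synthase genes GSY1 and GSY2 differed by 1.55 and 1.29, with GSY2 at 9.67 in sir2Δ and at 8.38 in both sir4Δ and wild type. GPH1, glycogen phosphorylase, had 0.92 and NTH1, the neutral trehalase, 0.64, so genes of breakdown as well as of synthesis lay above 0, while GLG1, a glycogenin, had -0.25.

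Several chaperone genes had the same order of strains as TSL1. Of 26 measured heat shock chaperone genes 9 were higher and none lower, with a median of 0.56. HSP82, the inducible Hsp90 gene, was at 12.10 and 10.20 in sir2Δ and sir4Δ, with 10.75 in wild type and 11.74 in sir3Δ, or 3.73-fold. HSP104, the disaggregase gene, was at 12.23 and 10.41, with 10.67 and 11.87. HSP78, its mitochondrial relative, had 9.44 and 7.57, with 7.66 and 8.97. For these 3 genes sir2Δ and sir3Δ lay together and apart from sir4Δ and wild type. The small heat shock gene HSP42 differed by 1.76, the Hsp90 cofactor gene AHA1 by 1.18, CUR1 by 1.13, the J-protein gene SIS1 by 1.05 and the Hsp70 gene SSA1 by 1.03. STI1 had 0.97, the constitutive forms HSC82 and SSA2, with levels above 14, had 0.19 and 0.15, and the stress-induced Hsp70 genes SSA3 and SSA4 had -0.04 and 0.14.

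HSP26 did not share that order. This small heat shock gene was at 7.89 in sir2Δ and 7.71 in wild type but at 6.38 in sir4Δ and 5.65 in sir3Δ, a difference of 1.51 with low levels on the sir3Δ and sir4Δ arrays. Of 30 measured general stress response genes 7 were higher and none lower, beside 1.16% and 0.496% of all genes, with a median of 0.38. HSP26 and HSP12 are members of both this list and the chaperone list, and HSP26 is among the higher genes of each. CYC7, the cytochrome c isoform of low oxygen, was at 7.24 in sir2Δ and 5.63 in sir4Δ, and 5.56 in wild type. The MAP kinase phosphatase gene SDP1 differed by 1.18, ALD4 by 1.16, the aldose reductase gene GRE3 by 1.14 and the glutamate decarboxylase gene GAD1 by 1.11. The call of XBP1, a repressor gene, was at 1.07 as deposited and was lost at 0.62 with values raised to background, since it lay below background in sir4Δ. HSP12 and DDR2, which are often used as markers of general stress, had -0.26 and -0.57, and CTT1, the cytosolic catalase gene, 0.38.

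**Figure D2:**
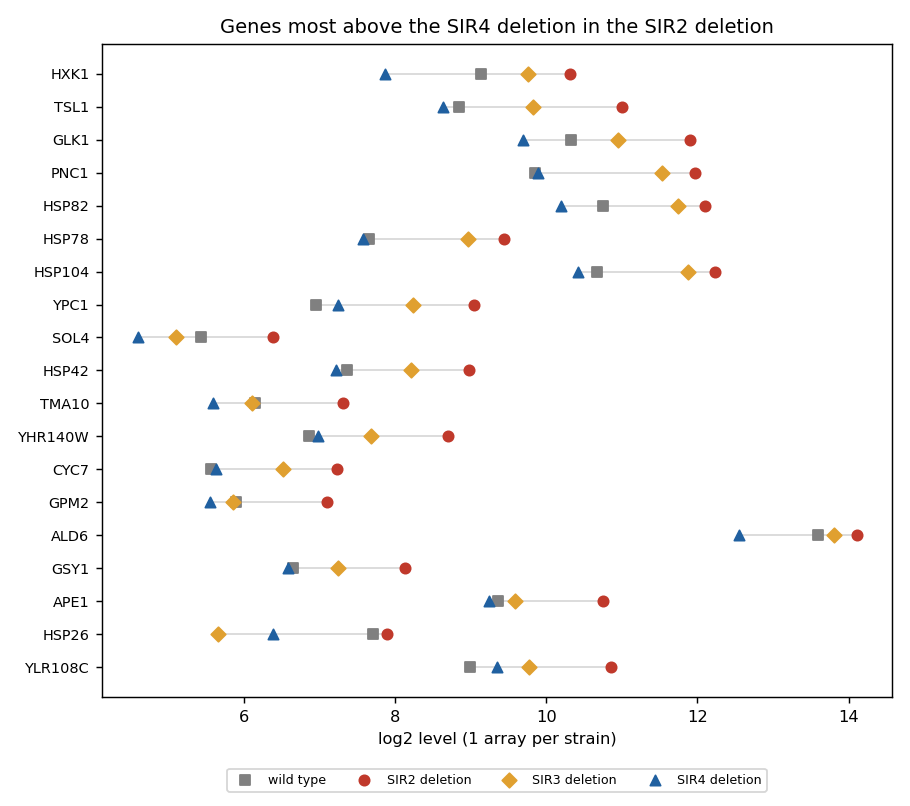
Log2 levels on the 4 arrays of the 19 genes with the largest difference after SIR4, 1 gene a row, wild type as grey squares and sir2Δ, sir3Δ and sir4Δ as red circles, yellow diamonds and blue triangles. sir2Δ is the highest array in every row, which the choice of genes by this difference favours. In most rows wild type lies near sir4Δ, as for PNC1 at 9.85 and 9.89, while for HSP26 it lies near sir2Δ.

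PNC1 was the called gene of NAD synthesis. It encodes nicotinamidase, which removes nicotinamide, an inhibitor of Sir2. Its level was 11.96 in sir2Δ, 11.53 in sir3Δ, 9.89 in sir4Δ and 9.85 in wild type, and it was 4.19-fold higher in sir2Δ than in sir4Δ. The 4 arrays fell into a high pair and a low pair, with sir4Δ beside wild type. Of 14 measured genes of the list none other was called, the median was 0.16, and the next were BNA3 at 0.74 and BNA5 at 0.51, with the nicotinamide riboside kinase gene NRK1 at -0.48. The sirtuin genes HST1, HST2, HST3 and HST4 differed by -0.26, 0.36, -0.24 and -0.27.

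In the citric acid cycle list the called genes were CIT1, IDH1 and CIT2. Of 21 measured genes of the cycle 3 were higher and none lower, with a median of 0.34 and 20 members above 0. CIT1, mitochondrial citrate synthase, was at 11.96 in sir2Δ and 10.83 in sir4Δ, with 10.62 and 11.73 in wild type and sir3Δ. IDH1, a subunit of isocitrate dehydrogenase, differed by 1.08 and IDH2, the other subunit, by 0.83. CIT2, the peroxisomal citrate synthase gene, was high in sir2Δ alone, at 13.01 against 11.99, 11.97 and 11.92. Of 35 genes of the respiratory chain and ATP synthase only COX5B was higher, at 1.11, and the median was -0.06. The activator gene HAP4 had 9.82 in both strains. MPC3, a mitochondrial pyruvate carrier gene, had 8.99 in sir2Δ and 7.76 in sir4Δ. Of 11 glycerol genes GPD1, glycerol 3-phosphate dehydrogenase, was higher at 1.25, with 12.41 in sir2Δ, 11.16 in sir4Δ and 10.55 in wild type, and the list median was 0.03.

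Of the 26 genes lower in sir2Δ other than SIR2, 4 encode enzymes of arginine synthesis. ARG1, argininosuccinate synthase, was at 10.60 in sir2Δ and 12.90 in sir4Δ, with 12.37 in wild type and 11.81 in sir3Δ, or 4.95-fold lower. ARG4, argininosuccinate lyase, was at 10.86 and 12.70, with 12.21 and 11.51. ARG3, ornithine carbamoyltransferase, was at 7.74 and 9.55, with 9.43 and 8.38. For these 3 genes sir2Δ was the lowest array, sir3Δ the next and sir4Δ the highest. ARG7, which makes ornithine, differed by -1.20, the mitochondrial ornithine carrier gene ORT1 by -0.91, ARG8 by -0.44, CPA1 by -0.38 and ARG2 by -0.13.

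Calls over all genes were 1.16% higher and 0.496% lower. Few calls elsewhere in amino acid synthesis are therefore not a result about those genes. In the list of arginine, lysine and leucine synthesis, with 26 measured genes, 4 were lower and 1, BAT2, was higher, and the median was -0.08. Of 37 genes for other amino acids none was called and the median was -0.10, with HIS5 at -0.65 and GCV2 at 0.47. GCN4, the activator of amino acid synthesis genes, differed by 0.04, and PCL5, a cyclin gene of the kinase that marks Gcn4 for breakdown, by -1.23, with 10.67 in sir2Δ and 11.90 in sir4Δ. Of 30 genes of sulfur assimilation and methionine MET16 was lower at -1.10 and STR2 had -0.99, while MHT1 had 0.89 and the median was -0.04.

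The called genes that break down or import nitrogen compounds were higher in sir2Δ. CAR2, ornithine transaminase of arginine breakdown, was at 11.94 in sir2Δ and 10.48 in sir4Δ, with 9.99 in wild type and 11.22 in sir3Δ. PTR2, the peptide transporter gene, was at 12.51 and 11.09, with 10.18 and 11.26, so it was above wild type in all 3 deletions and highest in sir2Δ. BAT2, the cytosolic branched-chain aminotransferase gene, had 12.85 and 11.54, with 11.66 and 12.20. Of 30 measured nitrogen catabolism genes 2 were higher and none lower, and the median was 0.08. The GABA transaminase gene UGA1 had 0.90 and the proline oxidase gene PUT1 0.86, while UGA3 had -0.56 and CAR1, arginase, 0.41.

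Single genes of metal, phosphate and vitamin supply were called. Over all genes the calls were 1.16% higher and 0.496% lower. Calls of 1 or 2 genes in lists this short, here and in the next paragraph, are not a result about the lists. ZRT1, the high-affinity zinc transporter gene, was at 10.57 in sir2Δ and 12.50 in sir4Δ, with 12.59 in wild type and 11.84 in sir3Δ, or 3.80-fold lower. sir2Δ was the lowest array and sir3Δ the next. Of 11 zinc regulon genes it was the one called, the median was -0.26 and would be 0.26 with the arrays set level by the bacterial RNAs, and the zinc-responsive activator gene ZAP1 had -0.75, IZH2 -0.79 and IZH1 -0.68. IZH4, of the same family as IZH1, was lower at -1.22. PHO89, a sodium phosphate cotransporter gene, was at 12.18 in sir2Δ and 13.71 in sir4Δ and 13.70 in wild type, and it was the one called of 18 phosphate regulon genes, whose median was -0.14 with PHO84 at -0.04.

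Both called iron genes were low in sir4Δ and lower still in sir3Δ. FIT2 and FIT3 encode cell wall mannoproteins that retain iron. FIT2 was at 12.80 in sir2Δ and 13.19 in wild type, but at 11.49 in sir4Δ and 10.26 in sir3Δ. FIT3 showed the same order, with 12.78 and 12.95 against 11.64 and 10.98. These were the 2 called of 30 iron regulon genes, whose median was 0.06, with FET3 at 0.07 and FRE4 at -0.80. Of 17 vitamin B6 and thiamine genes SNO1 was lower at -1.04, with 5.24 in sir2Δ, 6.28 in sir4Δ and 7.22 in wild type, while SNZ1 had -0.52, THI13 0.75 and the median was -0.04.

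**Figure D3:**
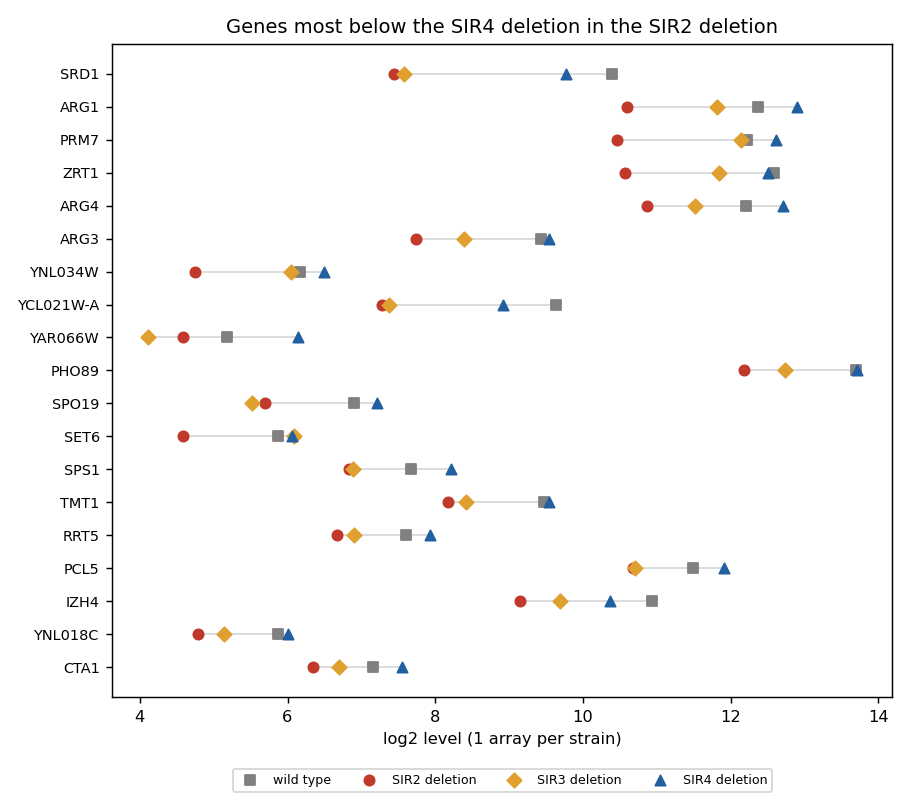
Log2 levels on the 4 arrays of the 19 genes with the smallest difference after SIR2, with symbols as for the higher genes. sir2Δ lies at or near the left end of every row, which the choice of genes by this difference favours. SRD1 and YCL021W-A show sir2Δ and sir3Δ together at 7.28 to 7.58 and the other arrays at 8.91 to 10.39.

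The gene lowest in sir2Δ relative to sir4Δ, after SIR2, was SRD1, a gene linked to the processing of ribosomal RNA. It was at 7.44 in sir2Δ and 7.58 in sir3Δ, but at 9.77 in sir4Δ and 10.39 in wild type, a difference of -2.33. YCL021W-A, an open reading frame with no standard name, had the same arrangement, with 7.28 and 7.37 against 8.91 and 9.63. Both lie on chromosome III. SPO19, a spore wall gene, had 5.69 and 5.51 against 7.21 and 6.90. For these 3 genes sir2Δ and sir3Δ lay together below sir4Δ and wild type, the mirror of PNC1.

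SET6, a gene of unsettled function, was low in sir2Δ alone. It was at 4.58 there and at 5.87 to 6.09 on the other 3 arrays. YNL034W was at 4.75 against 6.05 to 6.50, but its probe set can match several sequences, and without such probe sets it had -0.44. YAR066W, at place 3 from an end of chromosome I, was high in one strain, at 6.14 in sir4Δ against 4.58, 4.11 and 5.18, also with a probe set that can match several sequences. Of 18 meiosis and spore formation genes SPS1, a kinase gene of spore wall formation, was lower at -1.38, HOP1 had -0.93, SMK1 -0.69 and NDT80 -0.63, while IME1 had 0.58 and the list median was 0.01. CTA1, peroxisomal catalase, was lower at -1.21 and was, with HXK1, one of the 2 called among 19 glucose-repressed genes, whose median was -0.05.

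Every measured ribosome biogenesis gene of the list lay below 0. None of 65 was called, and all 65 were below 0, from -0.84 for DBP3 to -0.11 for NOP56, with a median of -0.54 that would be -0.02 with the arrays set level by the bacterial RNAs. DBP3, an RNA helicase gene of the large subunit pathway, was at 11.96 in sir2Δ and 12.80 in sir4Δ, with 12.68 in wild type and 12.49 in sir3Δ. CGR1, another gene of pre-ribosomal RNA processing, was called at -1.02. Of 28 genes of RNA polymerases I and III none was called and 26 were below 0, with a median of -0.41 that would be 0.11 on the scale of the bacterial RNAs, and RRN11, of the polymerase I core factor, had -0.77. Cytosolic ribosomal protein genes had none of 127 called, from -0.18 for RPL15B to 0.35 for RPS14B, but 114 of them had a mean level of 14 or more. Of 65 mitochondrial ribosomal protein genes none was called, and the median was -0.08.

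For the products of the ribosomal DNA, 7 control probe sets are named for S. cerevisiae, of which 6 were below 0, with a median of -0.40. Their mean levels were 13.09 in wild type, 12.72 in sir2Δ, 12.67 in sir3Δ and 13.13 in sir4Δ. The low mean was therefore shared by sir3Δ and not particular to sir2Δ. Another 10 rRNA probe sets with no species in their names had 7 below 0, a median of -0.30 and a range from -0.73 to 0.27. The 5 prime probe set of 25S rRNA was at 11.49 in sir2Δ and 12.52 in sir4Δ, with 12.42 in wild type and 11.72 in sir3Δ, a difference of -1.03. The bacterial control RNAs, with a median of -0.47, moved the same way, and their part in this result was not tested. ASP3-1, the measured gene within the ribosomal DNA array, had 0.22. Among 27 silencing factors and nucleolar partners of Sir2 none was called and the median was -0.16. NET1 and CDC14 had -0.16 and -0.02, FOB1, which binds the replication fork barrier of the ribosomal DNA, -0.55, and ABF1 0.54.

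**Figure D4:**
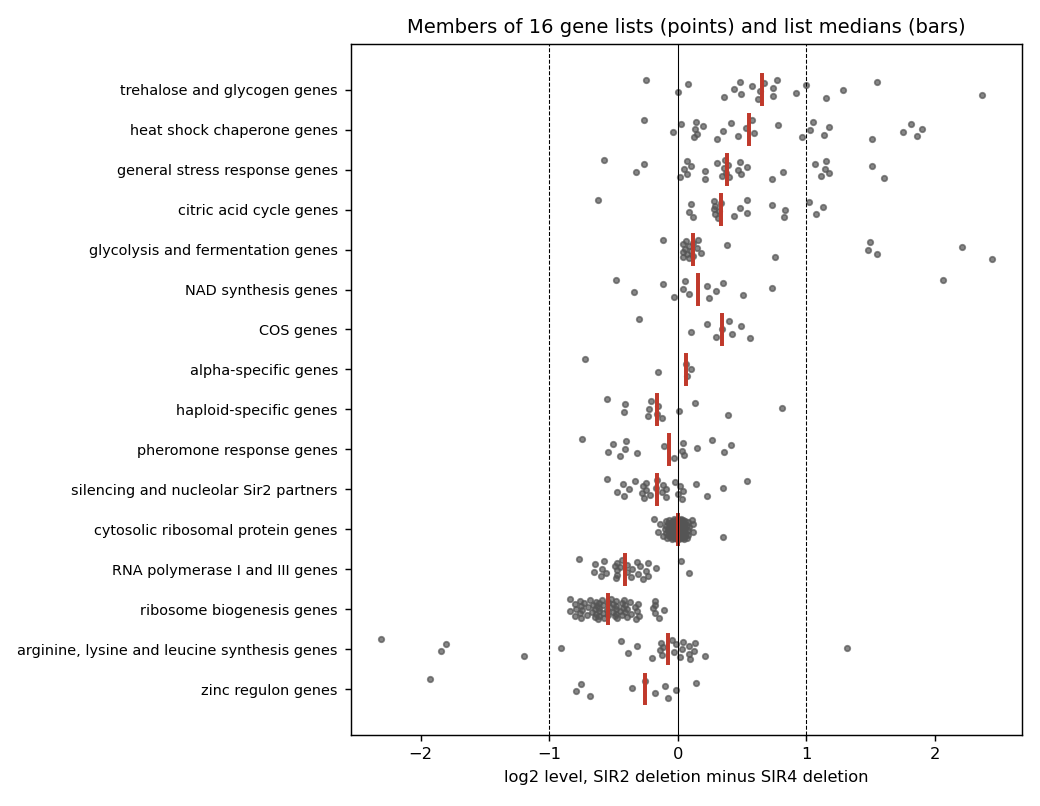
Each point is a member of 1 of 16 gene lists, placed by the log2 difference, SIR2 deletion minus SIR4 deletion, and red bars are list medians, with the limits of 1 and -1 dashed. The trehalose and glycogen, chaperone and stress lists have medians of 0.66, 0.56 and 0.38, and the ribosome biogenesis list has -0.54.

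Of the 12 genes at least 2-fold above wild type in all 3 deletions none was called between sir2Δ and sir4Δ. Over all genes the calls were 1.16% and 0.496%, so no call among so few is not a result about the group. The differences ran from -0.47 for YFR057W to 0.69 for CWP1. The rule leaves out genes raised less than 2-fold in sir4Δ, such as PTR2. HMRA1, which encodes the a1 protein at silent HMR, was at 9.38 in sir2Δ and 9.80 in sir4Δ, a difference of -0.42, with 2.87 in wild type, below background, and 9.01 in sir3Δ. COS12, of a subtelomeric family, was at 10.62 and 10.28. IMD2, an inosine monophosphate dehydrogenase gene near a chromosome end, was at 11.47 and 11.19, IME4 at 7.96 and 8.12 and YGL262W at 6.49 and 6.70. The members of this group were chosen by their distance from wild type on these arrays, and these values are a description.

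Genes lower than wild type in all 3 deletions were measured in the same way. Of 42 none was called, with a median of -0.03 and a range from -0.74 for SST2 to 0.97 for YBL100W-A. Beside 1.16% and 0.496% over all genes, no call in this group or in the short lists that follow is not a result about them. No member of the alpha-specific, haploid-specific or pheromone response lists was called, of 5, 13 and 16 measured, and their medians were 0.06, -0.16 and -0.07. STE3, the a-factor receptor gene, was at 7.10 in sir2Δ and 7.03 in sir4Δ, with 12.72 in wild type. The a-factor barrier gene AFB1 had 8.63 and 9.36, and RME1, the repressor of meiosis, 6.49 and 5.68. Of 7 a-specific genes none was called, with a median of -0.09. Of 3 genes measured at the silent mating loci HMRA1 alone was higher in the deletions than in wild type. HMLALPHA1 was at 6.80 in sir2Δ and 6.91 in sir4Δ, with 11.51 in wild type and 6.58 in sir3Δ. HMRA2 was at 10.65 and 10.85, with 11.15 and 10.80. Both have probe sets that can match several sequences.

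Among the 8 protein-coding genes nearest each end 180 were measured, of which 2 were higher, HXK1 and GTT1, and 2 lower, PHO89 and YAR066W, with a median of 0.01. Over all genes the calls were 1.16% and 0.496%, and counts this small are not a result about the ends. Of 9 COS genes none was called, but 8 lay above 0 and the median was 0.35, with COS111 at 0.56, COS8 at 0.42 and COS10 at -0.30. Of 13 PAU genes none was called, and the median was 0.08. Of 8 genes of guanine nucleotide synthesis none was called, with IMD2 at 0.28, HPT1 at -0.52 and a median of 0.01.

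Other called genes have roles in lipids, sugar metabolism and the vacuole. YPC1, a ceramidase gene, was at 9.04 in sir2Δ and 7.24 in sir4Δ, with 6.95 and 8.24 in wild type and sir3Δ. RSB1, a gene of sphingoid long-chain base resistance, was high in sir2Δ alone, at 9.83 against 8.47, 8.33 and 7.78, and was the one called of 16 multidrug resistance genes, whose median was 0.16. SOL4, a 6-phosphogluconolactonase gene of the pentose phosphate pathway, was at 6.38 and 4.60. APE1, a vacuolar aminopeptidase gene, had 10.75 in sir2Δ and 9.24 to 9.59 on the others. TMA10 and GPM2 were also high in sir2Δ alone, with 7.31 and 7.10 against at most 6.14 and 5.90 on the other arrays. TMT1, a methyltransferase gene, was low in sir2Δ and sir3Δ, at 8.18 and 8.41 against 9.54 and 9.47.

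Of the control probe sets outside the gene table, 6 of the 47 named as reporters differed between the arrays at least 8.66-fold. They were at 7.39 to 13.24 in sir2Δ and at 2.49 to 3.53 in sir4Δ, below its background of 4.28. Wild type had 7.48 to 13.02 and sir3Δ 7.44 to 12.76, so only the sir4Δ array was below background for them. Raised to background, the brightest of them was at least 497-fold higher in sir2Δ than in sir4Δ. Of the remaining 41 reporters none was called, with differences from -0.42 to 0.69, and 34 were below background on both arrays. The annotation gives these probe sets no gene, and 5 of the 6 carry 1 common design name. What they detect is not given in the sources used here, so less RNA from a sequence and its absence from the strain cannot be told apart.

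**Figure D5:**
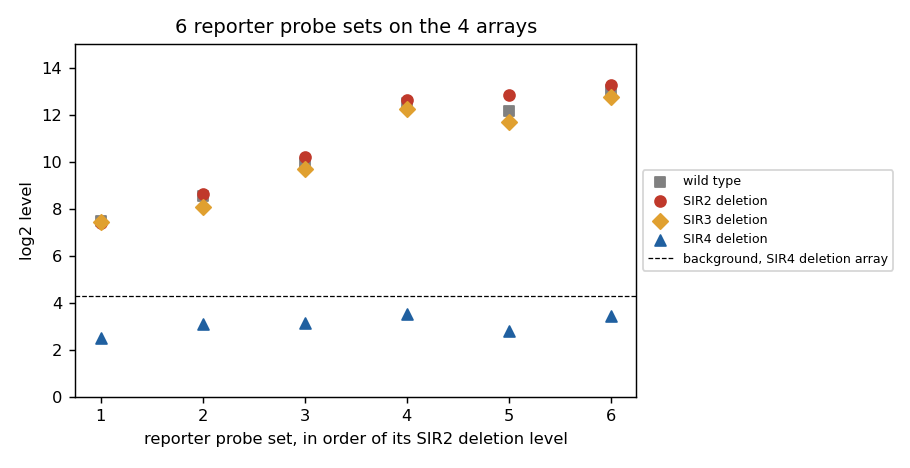
Log2 levels of the 6 reporter probe sets that differed at least 2-fold, in order of their level in sir2Δ, on the 4 arrays, with the background level of the sir4Δ array dashed. sir4Δ lies at 2.49 to 3.53 for all 6, and the other 3 arrays lie between 7.39 and 13.24. For the third of the common design, sir2Δ at 12.84 and sir3Δ at 11.68 are farther apart than for the other 5.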

How the data were processed

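Each array is an Affymetrix yeast array, deposited as log2 values per probe set. Per the submitters' processing notes the authors used RMA, which corrects background, gives all arrays 1 common distribution and combines the probes of a set, so a shift of all genes would not show. The RMA version is not stated in those notes as used here.

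Of 10928 probe sets, 5498 matched 5449 S. cerevisiae genes in the R64 RefSeq table, used for names and gene order only. The brightest probe set stood for each of the 47 genes with several. An array's background was set at the 95th percentile of 1746 probe sets for another yeast. A gene below background on 1 array has its fold computed with values raised to background and given as at least that fold.

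The level in the SIR4 deletion was subtracted from that in the SIR2 deletion and called at 1 or more and at -1 or less. With 1 array per strain no test was run. The calling was run on simulated data whose changes were far larger than the simulated noise. That run checks the computation only and gives no error rate for these arrays. Samples were grouped by the labels. Members and the 44 lists were chosen with earlier results of these data known. RPP1 and MRP8, caught by the name patterns of the ribosomal protein lists, were removed after their values were seen.

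Genes were named by rule if deleted or next to a deleted gene, together with the 20 genes at either end of the difference, the 6 farthest outside the other arrays for each strain, and members at the ends of the lists. Further genes in the text were picked once their values had been seen. Alternatives tried were other fold limits, scalings, treatments of background and choices of probe sets. A planned count of promoter motifs was not run, since promoter sequences were not used here. Computations used Python 3.11.15, pandas 2.3.3, numpy 2.4.6 and matplotlib 3.10.9.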

Additional observations from a re-analysis of the deposited data

Results flagged for a closer look

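Probe sets outside the gene table were not used for the counts of genes, and 22 of them differed at least 2-fold between the SIR2 and SIR4 deletions. The 6 reporter probe sets, all below background in the SIR4 deletion, differed by at least 3.11, 4.33, 5.90, 8.33, 8.56 and 8.96 on the log2 scale. Control probe sets of TDH1 differed by 1.62 at the 3 prime end, 2.19 in the middle and 2.04 at the 5 prime end, against 1.49 for the gene's own probe set. Another probe set for the middle of TDH1, with a suffix for probes that can match several sequences, differed by 0.06. The 5 prime probe set of 25S rRNA differed by -1.03.

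The remaining 12 carry no gene name in the annotation. Lower in the SIR2 deletion were 1777669_at at -2.75, 1777793_at at -1.79, 1777097_at at -1.66 and 1770455_at at -1.01, and 1770587_at, below background there, was lower by at least its bound of -1.28. Higher were 1771925_at at 1.74, 1779784_at at 1.69, 1774614_at at 1.505, 1774184_at at 1.35, 1778498_at at 1.13, 1774729_at at 1.09 and 1771022_at at 1.08. The probe set 1777669_at had 8.18 and 8.09 in the SIR2 and SIR3 deletions against 10.93 in the SIR4 deletion and 10.31 in wild type, the same arrangement of strains as SRD1.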

How the results depend on the processing

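With 1 array per strain no spread between replicates is known, and a gene near the limit can change sides with small shifts. At 1.5-fold 244 genes were higher and 214 lower, and at 3-fold 14 and 9. With the arrays set level by the bacterial control RNAs, a setting chosen after the data were seen, 400 were higher and 11 lower and the median of all genes was 0.49. With the hybridisation controls, also chosen later, 107 were higher and 20 lower and that median was 0.17. The median of the silent mating loci was -0.42 without probe sets that can match several sequences, and that of the strain background markers -0.11 with quantile normalization repeated, where fewer probe sets or another distribution entered.

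Among the 277 named genes the planned settings ended the calls of CGR1, XBP1, YNL034W, YNL092W and YOR072W-B, and COA4, HMS1, PDR15, XKS1 and YBL100W-A passed the limit in at least 1 of them. No called gene turned its direction in any setting run, which was largely fixed in advance. Other fold limits, raising to background and shifts of all genes by at most 0.52 cannot turn a difference of 1 or more. No paired analysis was possible because each strain had 1 array. Levels below background limit XBP1, SIR2 and SIR4 among the called genes to bounds or weaker values.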

Other observations

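Further lists are given here and in the next paragraph. Beside calls of 1.16% higher and 0.496% lower over all genes, no call in lists of this size is not a result about them. None of the 33 proteasome genes was called, with a median of 0.06, nor any of the 28 sterol synthesis genes, at 0.15, or the 10 histone genes, at -0.03. Among 15 DNA damage genes none was called and the median was 0.22, with the polyubiquitin gene UBI4 at 0.82, the DNA glycosylase gene MAG1 at 0.63 and the ribonucleotide reductase gene RNR3 at 0.62. Of 24 cyclin and daughter cell genes none was called and the median was -0.09, with the mitotic cyclin genes CLB2 at -0.54 and CLB1 at -0.49.

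Hexose transporter genes included HXT11 at 0.91, HXT7 at 0.73 and HXT5 at -0.54, and none of 17 was called. HXT15 also had 0.73, but it lay below background on both arrays, at 3.56 in sir2Δ and 2.83 in sir4Δ. Of the 17 genes, 5 were below background on both arrays, and their differences are not read. Of 25 cell wall mannoprotein genes none was called, with YGP1 at 0.73 and TIR4 at -0.57, and the median was 0.06. Of 13 purine synthesis genes none was called, 11 lay below 0 and the median was -0.15, with the activator gene BAS1 at -0.57. Marker genes of the strain background, URA3, LEU2, LYS2, HIS3 and MET17, differed by 0.04, 0.32, -0.27, -0.33 and 0.22. Of these 5 genes 1 was below background on both arrays, and LYS2 was below it in sir2Δ, at 4.17 against 4.32.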
